A study of Mus musculus with 8 samples.

Results

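The TCA cycle oxidizes acetyl-CoA to CO2 in the mitochondrial matrix, and pyruvate and branched-chain amino acids (BCAA: leucine, isoleucine and valine) are among the fuels that feed it. A set of 46 genes for these enzymes and carriers was chosen by name from the 31053 gene identifiers of the count table. All 46 symbols matched 1 identifier each. Succinate dehydrogenase, which is also respiratory complex II, was not included in the set. The genes were measured by bulk RNA-seq in brown adipose tissue (BAT), the thermogenic fat depot, with 4 WT and 4 Cd36KO libraries from C57BL6/J mice labelled as 8 weeks old.

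The receptor CD36 binds lipids and extracellular vesicles. The labels name the genotype only as Cd36KO. The study made a germline knockout and a line in which Csf1r-driven Cre removes floxed Cd36 in myeloid cells. It assigned its BAT profile to the myeloid line and harvested tissue after a fast. Its methods state a later age for that line than the labels do, while its figure legend for the profile gives the 8 weeks of the labels. The labels call the material stromal vascular fraction, a preparation without mature adipocytes, yet adipocyte markers (Adipoq, Plin1, Fabp4, Lpl, Cfd and Pparg) summed to between 11145 and 21013 CPM (counts scaled to the library total) in each library. Cd36 itself had 2412 to 3505 normalized counts (counts divided by the DESeq2 size factor) in WT and 1926 to 2384 in Cd36KO libraries, with a log2 fold change of -0.48 (standard error 0.16) and a DESeq2 adjusted p of 0.0602, so the transcript was present in every Cd36KO library. The study describes male mice, whereas Xist had 772 to 1588 counts in each of the 8 libraries and 4 Y-linked genes summed to at most 3. Total counts were 2679785 to 4097953 per library. One Cd36KO column carries no replicate number and is called the unnumbered Cd36KO library. Skeletal muscle markers stood apart in WT 1, with a summed 32812 CPM while the other WT libraries had 451 to 5611 and Cd36KO libraries 157 to 3371. All 20 muscle markers had log2 fold changes below 0 in Cd36KO against WT (median -2.97). DESeq2 called 0 of them, and 11 were lower at an unadjusted DESeq2 p under 0.05, as were 758 of all 9619 genes with an adjusted p.

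Brown adipocytes are rich in mitochondria and draw on fatty acids, glucose and BCAA for heat. Pyruvate enters mitochondria through the carrier MPC and is turned into acetyl-CoA by the pyruvate dehydrogenase complex, which kinases (PDK) switch off and phosphatases (PDP) switch on, or into oxaloacetate by pyruvate carboxylase. BCAA are first transaminated and then oxidized by the branched-chain ketoacid dehydrogenase complex, whose downstream steps end in acetyl-CoA or succinyl-CoA.

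The members that passed the test were 3 of the 13 TCA cycle enzymes, each higher in Cd36KO BAT, and 0 of the members in other roles, a difference between roles that was not tested. Idh3g, Idh2 and Suclg1 passed at a DESeq2 adjusted p under 0.05 (Wald test, Benjamini-Hochberg over the 9619 genes left by the default filtering). In the lower direction 0 members passed. These 3 were 6.98% of the 43 members that received an adjusted p, against 2.95% of all 9619 genes called in either direction and 1.42% called higher. The other 3 members, Pdk3, Pdp1 and Me2, were too sparse for an adjusted p. With independent filtering off, over 17361 genes, only Idh3g passed, with DESeq2 adjusted p values of 0.0772 for Idh2 and 0.0628 for Suclg1. The call depended on the tool, because the edgeR quasi-likelihood test called 0 of 43 members. An unadjusted edgeR p under 0.05 was found for 7 of 43, about the same share as the 1567 of all 9619 genes, in either direction. Across all genes edgeR called 0.143% after adjustment. In DESeq2, 8 members had an unadjusted p under 0.05 and were higher, which is 18.6% of 43 against 7.69% of all genes, and 0 were lower. The median log2 fold change of the 43 was 0.21, with a range from -0.85 to 0.63, beside -0.01 over all 9619 genes. Of the 43, 29 (67.4%) were above 0, compared with 49.2% of all genes. Nothing in the labels says how the libraries of a group relate beyond a number, so p-values set the group difference against the spread between these libraries only.

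**Figure D1:**
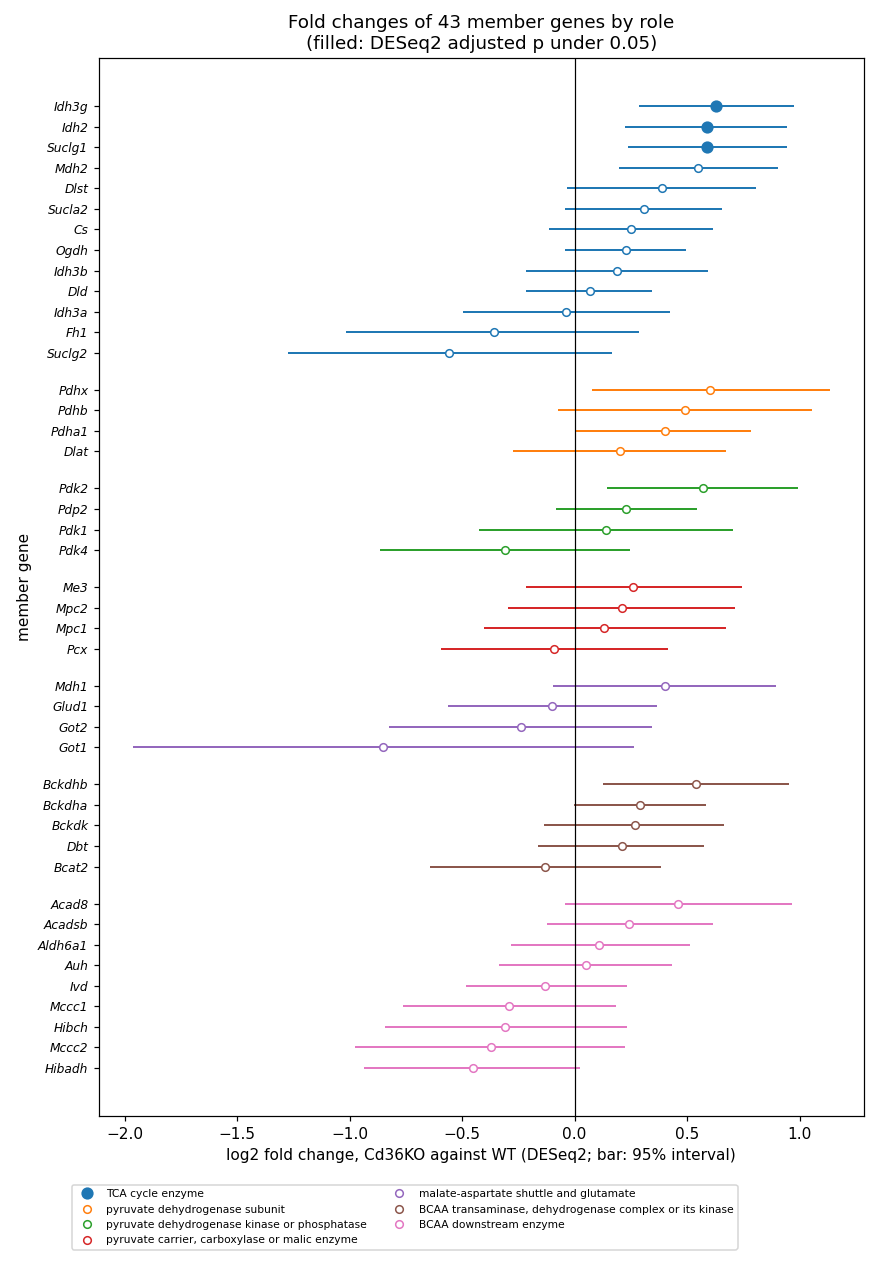
Log2 fold change of Cd36KO against WT (x axis, DESeq2, bars are 95% intervals) for the 43 members with an adjusted p (y axis), coloured by role. Filled points mark Idh3g, Idh2 and Suclg1, the members past an adjusted p of 0.05, and the 4 pyruvate dehydrogenase subunits all lie right of 0 while 5 of the 9 downstream BCAA enzymes lie left of it.

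The sequences just before the starts of the 3 members that passed are shown because these genes differed in the same direction. They come from the RefSeq promoter table (GRCm38.p6) and are limited to the stretch that no annotated exon covers. Starts are those of that table, which for Idh2 and Suclg1 lie inside the GENCODE gene whose coordinates are given further on, so each of these stretches ends where the GENCODE gene begins. Capitals mark CG pairs, the dinucleotides that DNA methylation acts on.

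Idh2 (chr7:80115393-80115600, minus strand, 208 bases ending 42 bases before the RefSeq start): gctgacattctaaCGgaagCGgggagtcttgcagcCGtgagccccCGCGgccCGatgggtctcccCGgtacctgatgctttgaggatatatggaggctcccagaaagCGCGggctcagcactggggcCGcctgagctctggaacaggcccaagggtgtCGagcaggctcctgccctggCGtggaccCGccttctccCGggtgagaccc

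Idh3g (chrX:73786898-73787027, minus strand, 130 bases ending at the RefSeq start): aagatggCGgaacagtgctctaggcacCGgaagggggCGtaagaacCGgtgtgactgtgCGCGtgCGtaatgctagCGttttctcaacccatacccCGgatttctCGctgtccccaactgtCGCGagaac

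Suclg1 (chr6:73248255-73248381, plus strand, 127 bases ending 123 bases before the RefSeq start): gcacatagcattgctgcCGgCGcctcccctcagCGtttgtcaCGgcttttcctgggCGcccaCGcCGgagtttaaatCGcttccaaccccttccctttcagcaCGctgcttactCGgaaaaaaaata

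The 3 stretches held 14, 12 and 10 CG pairs, with 66.3%, 57.7% and 55.9% G or C. Over the 54 promoters that the table gives for 42 members, the median was 15.5 CG pairs in the 250 bases before the start, against 6.0 over all 32851 promoters. Both strands of these 250 bases were searched for 3 motifs of factors that act on mitochondrial genes. The estrogen-related receptor motif TNAAGGTCA was found in 0 of 54 member promoters and in 1.14% of all promoters. The NRF1 motif GCGCANGCG was found in 4 of 54 (7.41%), at Hibadh, Ogdh and Sucla2, and in 5.16% of all. The cAMP response element TGACGTCA was found in 4 of 54 (7.41%), at Mdh2 and Ogdh, and in 1.55% of all. None of the 3 printed stretches holds any of these motifs. A match describes the sequence only, and a gene can have several promoters in the table.

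Idh3g encodes the gamma subunit of the NAD-dependent isocitrate dehydrogenase (ENSMUSG00000002010, GRCm38 chromosome X, 73778963 to 73786897, minus strand). WT 1, 2, 3 and 4 had 1385, 1608, 1740 and 1859 normalized counts of Idh3g. The unnumbered Cd36KO library had 3121, and Cd36KO 2, 3 and 4 had 1937, 2567 and 2572. All Cd36KO values lay above all WT values, with Cd36KO 2 closest to WT. The mean rose from 1648 ± 203 to 2549 ± 484 (SD, n = 4 per group), a 1.55-fold difference. The log2 fold change of Idh3g was 0.63 (standard error 0.17), with a DESeq2 adjusted p of 0.0217 and an edgeR adjusted p of 0.140. A two-sided exact permutation test, with 70 ways to split 8 libraries evenly, gave its lowest possible p of 0.0286. The DESeq2 adjusted p of Idh3g went to 0.138 without the unnumbered Cd36KO library, 0.0809 without WT 2, 0.0666 without WT 3, 0.0640 without Cd36KO 3 and 0.0669 without Cd36KO 4.

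Idh2 encodes the NADP-dependent mitochondrial isocitrate dehydrogenase, a source of NADPH (ENSMUSG00000030541, chromosome 7, 80094846 to 80115392, minus strand). The WT libraries had 830, 787, 892 and 797 normalized counts of Idh2, replicates 1 to 4 in turn. The unnumbered Cd36KO library had 1242, and Cd36KO 2, 3 and 4 had 1176, 1620 and 924. The WT libraries lay close together, and the groups did not overlap although Cd36KO 4 was only just above the highest WT library. Idh2 rose from 826 ± 47.0 to 1241 ± 288 (SD, n = 4 per group), a log2 fold change of 0.59 (standard error 0.18) with a DESeq2 adjusted p of 0.0443, an edgeR adjusted p of 0.170 and an two-sided exact permutation p of 0.0286. Of the 8 fits that left out 1 library, 2 kept Idh2 under 0.05, those without WT 4 (DESeq2 adjusted p of 0.0438) and without Cd36KO 4 (0.00746). The other 6 gave 0.0598 without WT 1, 0.126 without WT 2, 0.0996 without WT 3, 0.153 without the unnumbered Cd36KO library, 0.0514 without Cd36KO 2 and 0.145 without Cd36KO 3.

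Suclg1 encodes the alpha subunit shared by both succinate-CoA ligases, which form succinate and a nucleoside triphosphate (ENSMUSG00000052738, chromosome 6, 73248382 to 73276911, plus strand). Its normalized counts were 1754, 1982, 1845 and 2616 in WT 1 to 4. The Cd36KO libraries had 3588 in the unnumbered library and 2527, 3304 and 2925 in replicates 2, 3 and 4. The groups overlapped, since WT 4 exceeded Cd36KO 2. Suclg1 rose from 2049 ± 389 to 3086 ± 461 (SD, n = 4 per group), a log2 fold change of 0.59 (standard error 0.18) with a DESeq2 adjusted p of 0.0357, an edgeR adjusted p of 0.162 and an two-sided exact permutation p of 0.0571. It passed without WT 4 (DESeq2 adjusted p of 0.000538) and without Cd36KO 2 (0.0135). It did not pass without WT 1 (0.0787), WT 2 (0.110), WT 3 (0.171), the unnumbered Cd36KO library (0.188), Cd36KO 3 (0.104) or Cd36KO 4 (0.0745).

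**Figure D2:**
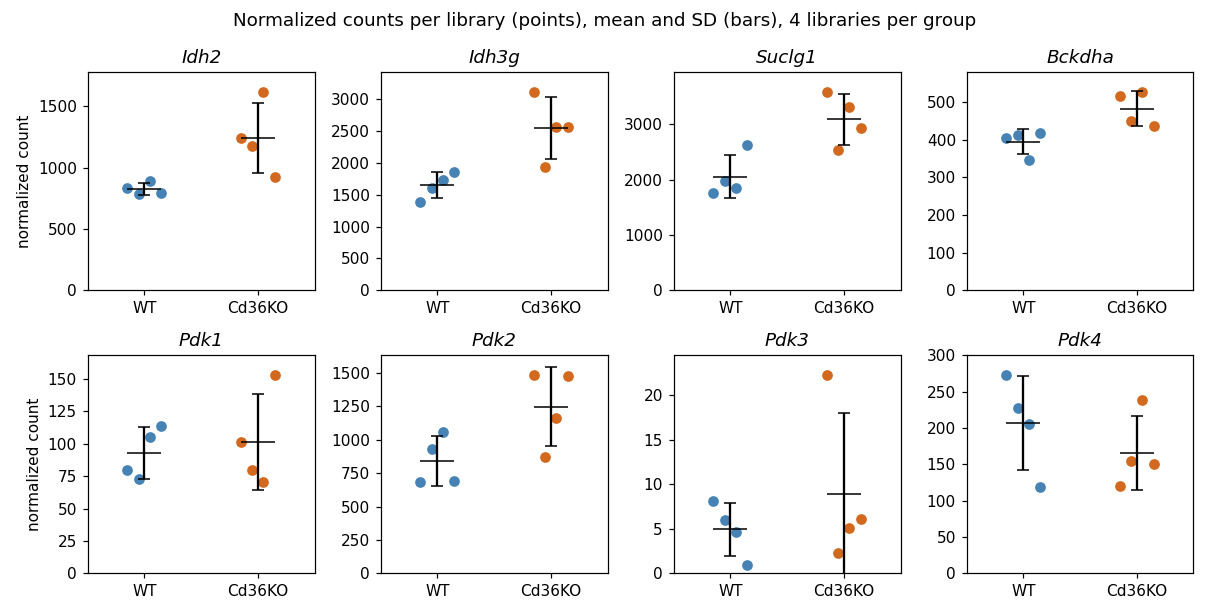
Normalized counts (y axis, from 0) in each WT and Cd36KO library (points) for 8 members, with the group mean and SD (black bars, 4 libraries per group, lower Pdk3 bar cut at 0). Idh2, Idh3g and Bckdha show groups that do not overlap, and the 4 Pdk genes show groups that do.

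Brown adipocyte markers moved with these genes. Summed over 10 markers they were 6217 to 8024 CPM in WT and 11065 to 12790 in Cd36KO libraries, and Ucp1, Cidea, Cox7a1 and Cox8b, 4 of the 9 with an adjusted p, were called higher in DESeq2 and 0 in edgeR. The 6 general adipocyte markers lay the other way, with 12338 to 21013 CPM in WT and 11145 to 17512 in Cd36KO libraries. All 6 had log2 fold changes below 0 (median -0.38) and 0 passed, with Fabp4, a fatty acid binding protein, at -0.73 and all its Cd36KO values below all WT values. White fat markers moved the other way, with 297 to 1655 CPM in WT and 226 to 323 in Cd36KO libraries. Of the 7 white fat markers with an adjusted p, 6 were called lower in DESeq2 and 4 in edgeR (among them Lep, Hoxc8 and Aldh1a1), while the defining markers Hoxc10 and Wt1 were at 0 in all libraries. The summed 46 members were 10434 to 11915 CPM in WT and 12666 to 14105 in Cd36KO libraries. In bulk tissue, more brown adipocytes and more RNA of these genes per brown adipocyte cannot be told apart. The part of the marker lists in the member results was examined only by adding a marker score to the DESeq2 fit. With the muscle score 0 members were called, against 2.84% of all genes in that fit, and Idh3g, Idh2 and Suclg1 had log2 fold changes of 0.69, 0.44 and 0.67. With the white fat score 12 were called, 11 of them higher. These were 27.9% of 43, against 8.49% of all genes in that fit, where calls went from 284 to 617. Idh2 was not among the 12, with a log2 fold change of 0.43 and a DESeq2 adjusted p of 0.430. The white fat score itself was 3.54, 5.18, 5.38 and 5.38 in WT 1 to 4 and 2.75 to 3.38 in Cd36KO libraries. It followed genotype except in WT 1, so this fit could not cleanly separate score from genotype. Macrophage markers summed to 212 to 320 CPM in WT and 201 to 280 in Cd36KO, endothelial markers to 202 to 391 and 255 to 347, and stromal markers to 564 to 754 and 449 to 531. The macrophage marker Cd163 was called lower in DESeq2 only (log2 fold change -1.25), the stromal marker Dpt was called lower in both DESeq2 and edgeR (-1.48), and 0 endothelial markers were called.

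**Figure D3:**
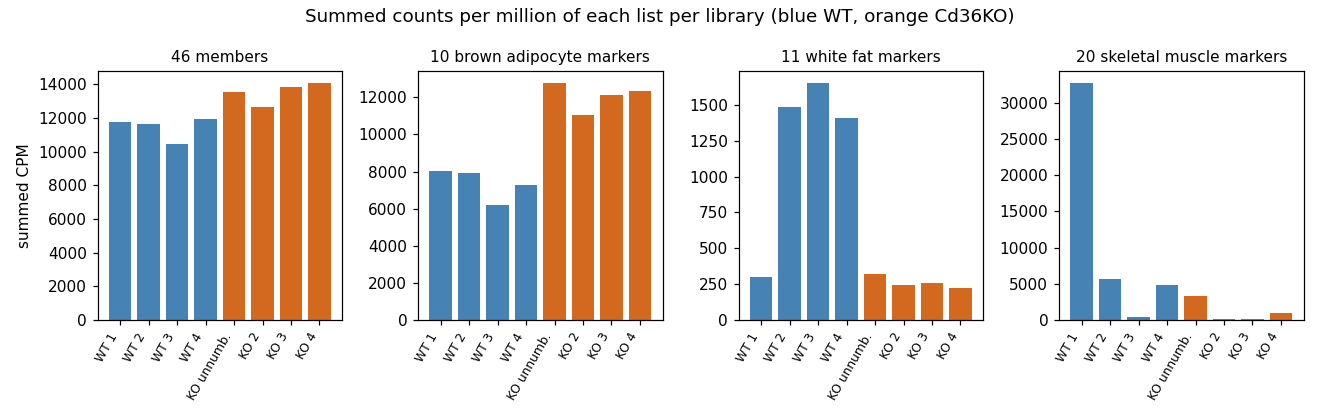
Summed CPM (y axis, from 0) per library (x axis) of the 46 members and of the brown adipocyte, white fat and skeletal muscle marker lists, with WT in blue and Cd36KO in orange. Members and brown adipocyte markers are higher in each Cd36KO library than in each WT library, white fat markers of WT 1 (297) sit at the Cd36KO level, and muscle markers reach 32812 in WT 1.

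Among the 13 TCA cycle enzymes, 10 were above 0 and 3 below, with a median log2 fold change of 0.25. Mdh2, the mitochondrial malate dehydrogenase, had 2963 to 4348 normalized counts in WT and 4330 to 6777 in Cd36KO libraries. Its log2 fold change was 0.55 (standard error 0.18) and its DESeq2 adjusted p of 0.0620 did not pass. The groups met only where Cd36KO 2, at 4330, lay just under WT 4, at 4348. Without WT 4 or without Cd36KO 2, Mdh2 passed with adjusted p values of 0.0133 and 0.0177 in DESeq2. It did not pass in the other 6 such fits, with log2 fold changes down to 0.43 (adjusted p of 0.298 in DESeq2) without the unnumbered Cd36KO library. The 2-oxoglutarate dehydrogenase complex, which makes succinyl-CoA, had log2 fold changes of 0.23 for Ogdh, 0.39 for Dlst and 0.07 for Dld, the subunit it shares with the pyruvate and BCAA complexes. Without WT 4 Dlst was at 0.64 with a DESeq2 adjusted p of 0.00192. It passed in no other fit that left out 1 library, and was at 0.28 without WT 2. Dld was the most even of the group, with 571 to 742 normalized counts in WT and 641 to 673 in Cd36KO libraries. Citrate synthase (Cs), the entry step often used as a measure of mitochondrial content, had 1071 to 1835 normalized counts in WT and 1511 to 1886 in Cd36KO libraries. The Cs log2 fold change of 0.25 had a 95% interval from -0.11 to 0.61, so neither no difference nor a rise of the size seen in Idh2 lay outside it. Fumarase (Fh1) had a log2 fold change of -0.36 with an interval from -1.01 to 0.28, and its lowest value, 146 normalized counts, was in the unnumbered Cd36KO library. Without that library Fh1 was at -0.10, and without WT 4 at -0.20, while it was at -0.56 without WT 3 and -0.48 without Cd36KO 4.

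Subunits of 1 enzyme had different fold changes. The catalytic subunit gene Idh3a had 4477, 2964, 3837 and 2355 normalized counts in WT 1 to 4 and 2563, 4082, 4012 and 2630 in the Cd36KO libraries, with a log2 fold change of -0.04 (95% interval -0.49 to 0.42). Idh3b, its partner, was at 0.19 (-0.21 to 0.59) and Idh3g at 0.63 (0.29 to 0.97). The unnumbered Cd36KO library was the highest of all for Idh3g and the lowest Cd36KO library for Idh3a. The difference between the subunits was itself tested within libraries. The mean log2 ratio of Idh3a to Idh3g was 1.01 ± 0.56 in WT libraries and 0.37 ± 0.61 in Cd36KO libraries (SD, n = 4 per group), and the two-sided exact permutation p was 0.171. For succinate-CoA ligase, the GTP-specific subunit gene Suclg2 had 35.3 to 93.0 normalized counts in WT and 26.7 to 63.3 in Cd36KO, a log2 fold change of -0.56 (-1.27 to 0.16). The ATP-specific Sucla2 was at 0.31 (-0.04 to 0.65). The log2 ratio of Suclg1 to Suclg2 was 5.04 ± 0.60 in WT and 6.18 ± 0.74 in Cd36KO, a difference of 1.14 with an two-sided exact permutation p of 0.0571. After adjustment over the 18 subunit pairs compared, these p-values were 0.513 and 0.257. With 0.0286 as the smallest p that 4 against 4 libraries can give, a single pair could not pass this adjustment. The pairs were compared after the values had been seen.

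All 4 pyruvate dehydrogenase subunit genes were above 0, with a median log2 fold change of 0.44, and 0 of 4 passed. Pdhx, which anchors the E3 component, had 231 to 510 normalized counts in WT and 400 to 636 in Cd36KO libraries, with a log2 fold change of 0.60 (standard error 0.27) and a DESeq2 adjusted p of 0.222. The WT range rests on WT 4, since the other WT libraries lay between 231 and 276, below each Cd36KO library. Without WT 4 the log2 fold change of Pdhx was 0.94 with a DESeq2 adjusted p of 0.000671. It passed in none of the other 7 fits that left out 1 library, and was lowest, 0.44 with an adjusted p of 0.661 in DESeq2, without the unnumbered Cd36KO library. Pdhb, the E1 beta subunit that the study also followed as protein in vesicles, had 908, 1208, 1053 and 2116 normalized counts in WT 1 to 4. It had 2381 in the unnumbered Cd36KO library and 1475, 1195 and 2377 in the others. WT 4 was nearly as high as the highest Cd36KO libraries, and the log2 fold change was 0.49 (0.81 and past the threshold without WT 4). It was 0.35 without WT 1, without the unnumbered Cd36KO library and without Cd36KO 4, and passed in none of these. The X-linked E1 alpha gene Pdha1 was at 0.40 and the E2 gene Dlat at 0.20. The log2 ratio of Dlat to Pdhx was the only one of the 18 whose groups did not overlap, 0.74 ± 0.11 in WT libraries and 0.34 ± 0.29 in Cd36KO libraries (SD, n = 4 per group; two-sided exact permutation p = 0.0286, adjusted 0.257).

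The 4 kinases that switch the complex off were described one by one, and none passed. Pdk2 had 684, 933, 1059 and 691 normalized counts in WT 1 to 4, and 1486 in the unnumbered Cd36KO library and 869, 1164 and 1475 in Cd36KO 2 to 4. Cd36KO 2 lay inside the WT range and the other Cd36KO libraries lay above it. The log2 fold change of Pdk2 was 0.57 (standard error 0.22) with a DESeq2 adjusted p of 0.137, and without Cd36KO 2 it was 0.71 with an adjusted p of 0.0200. It passed in none of the other 7 such fits, and was 0.48 without WT 1, the unnumbered Cd36KO library or Cd36KO 4. Pdk4, a kinase induced by fasting in many tissues, had 273, 228, 205 and 119 normalized counts in WT 1 to 4. It had 120 in the unnumbered Cd36KO library and 155, 239 and 151 in Cd36KO 2 to 4. The ranges largely overlapped and the log2 fold change was -0.31 (standard error 0.28, DESeq2 adjusted p of 0.656). Pdk1 had 79.4, 73.0, 105 and 114 normalized counts in WT 1 to 4, and 101, 79.4, 70.6 and 153 in the Cd36KO libraries, the unnumbered one first. Its log2 fold change of 0.14 (standard error 0.29, DESeq2 adjusted p of 0.880) came with the highest value in Cd36KO 4. Pdk3 was barely detected, with 8.12, 5.95, 4.70 and 0.989 normalized counts in WT 1 to 4 and 22.3, 2.30, 5.11 and 6.10 in the Cd36KO libraries. A difference in Pdk3 was not detectable at this depth. Of the phosphatases that reactivate the complex, Pdp2 had 509 to 608 normalized counts in WT and 518 to 724 in Cd36KO libraries, a log2 fold change of 0.23 (95% interval -0.08 to 0.54). Pdp1 had at most 18 counts in any library and 0 in WT 4.

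**Figure D4:**
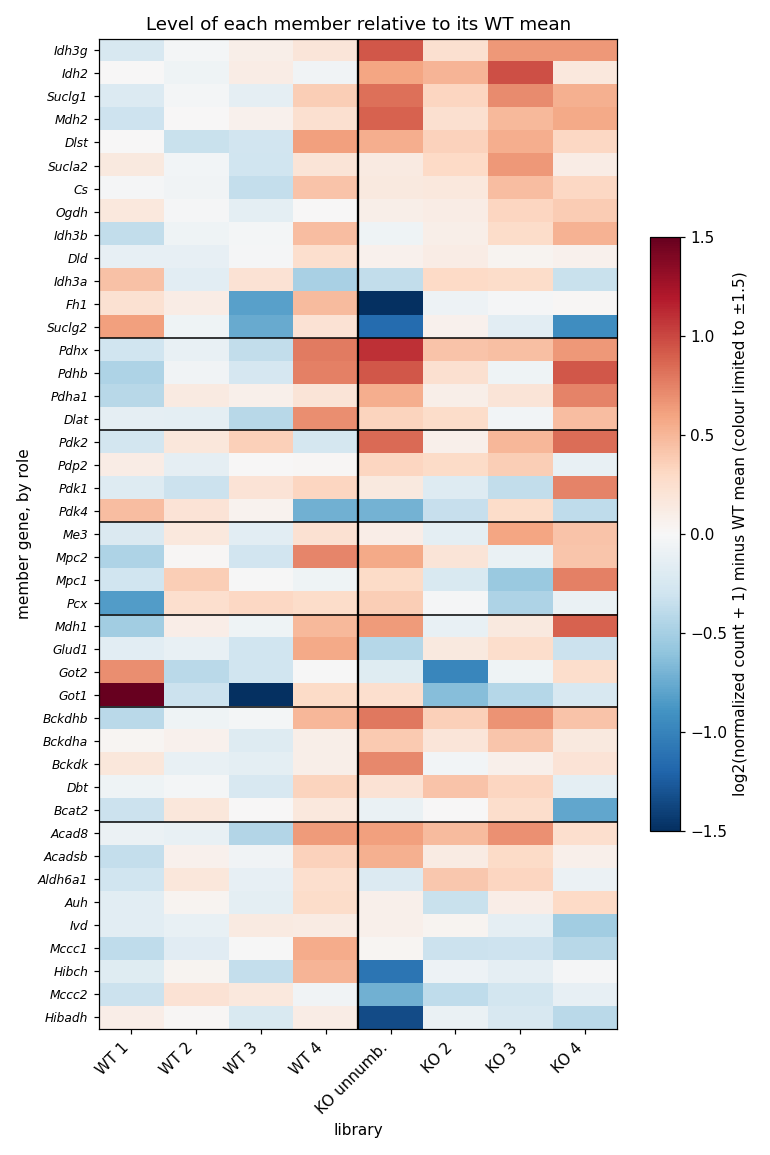
Difference of log2(normalized count + 1) from the WT mean (colour, limited to 1.5 either way) for 43 members (rows, grouped by role) in each library (columns, WT left and Cd36KO right of the line). Idh3g and Suclg1 are above their WT mean in each Cd36KO library, while the unnumbered Cd36KO library holds both high values (Pdhx, Mdh2) and low ones (Fh1, Hibadh, Hibch).

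The other routes of pyruvate had 3 genes above 0 and 1 below, with a median log2 fold change of 0.17 and 0 of 4 past the threshold. Pyruvate carboxylase (Pcx), which refills oxaloacetate and which the study also followed as protein in vesicles, had 676, 1439, 1510 and 1473 normalized counts in WT 1 to 4 and 880 to 1571 in Cd36KO libraries. WT 1, the library with the most muscle marker counts and the WT library with the fewest white fat marker counts, was below all others, and the log2 fold change was -0.09 (95% interval -0.59 to 0.41). Without WT 1 the log2 fold change of Pcx was -0.30. It was -0.12 with the muscle score in the fit, and 1.13 with the white fat score, which passed with a DESeq2 adjusted p of 0.00126. The white fat score followed genotype except in WT 1, so that fit could not cleanly separate score from genotype. The pyruvate carrier subunits Mpc1 and Mpc2 were at 0.13 and 0.21. Mpc1 reached 415 normalized counts in Cd36KO 4 against 167 to 300 in the other Cd36KO libraries. The mitochondrial malic enzyme Me3, which makes pyruvate from malate, was at 0.26, and Me2 had 3 to 16 counts per library.

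Genes of the malate-aspartate shuttle and of glutamate oxidation, which pass reducing equivalents and carbon into the cycle, had 1 value above 0 and 3 below. The cytosolic malate dehydrogenase Mdh1 had 772 to 1556 normalized counts in WT and 1031 to 2042 in Cd36KO libraries, a log2 fold change of 0.40 (DESeq2 adjusted p of 0.464). The cytosolic aspartate transaminase Got1 had 161, 33.1, 10.6 and 51.4 normalized counts in WT 1 to 4 and 26.5 to 50.1 in Cd36KO libraries. WT 1 alone was far above the other libraries, and the log2 fold change was -0.85 (standard error 0.56), or 0.15 without WT 1. Got2, the mitochondrial transaminase, showed the same library on top, with 333 normalized counts in WT 1 against 155 to 205 in the other WT libraries. For Got2 it was -0.24, or 0.05 without WT 1. With the muscle score in the fit, Got1 and Got2 had log2 fold changes of 0.85 and 0.17, and neither passed. With the white fat score, which followed genotype except in WT 1, Got1 was at -2.34 and passed (DESeq2 adjusted p of 0.0209). Glutamate dehydrogenase (Glud1) was at -0.10 with an interval from -0.56 to 0.36.

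The first steps of BCAA catabolism and the later ones had different medians, 0.27 for 5 genes of the transaminase, the ketoacid dehydrogenase complex and its kinase, and -0.13 for 9 downstream enzymes. Whether the roles differed was not tested. Bckdha, the E1 alpha subunit (ENSMUSG00000060376, chromosome 7, 25629946 to 25658981, minus strand), had 403, 413, 345 and 417 normalized counts in WT 1 to 4. It had 516 in the unnumbered Cd36KO library and 448, 527 and 435 in Cd36KO 2 to 4. The groups did not overlap but the gap from 417 to 435 was small, and the log2 fold change of 0.29 (standard error 0.15) did not pass, with a DESeq2 adjusted p of 0.333 (two-sided exact permutation p = 0.0286). Idh2, Idh3g and Bckdha, 3 of 43 members, had all Cd36KO values above all WT values, against 4.83% of all genes. None had all Cd36KO values below, against 3.93% of all genes. The E1 beta subunit Bckdhb had the larger difference, with 314 to 591 normalized counts in WT and 534 to 723 in Cd36KO libraries. Its log2 fold change was 0.54 (standard error 0.21) with a DESeq2 adjusted p of 0.146, and 0.73 with an adjusted p of 0.00307 without WT 4. It passed in none of the other 7 such fits, the lowest value being 0.41 without WT 1. The E2 subunit Dbt was at 0.21 and Bckdk, the kinase that inactivates the complex, at 0.27. The mitochondrial transaminase Bcat2, which starts the pathway, was at -0.13, with 54.9 normalized counts in Cd36KO 4 against 89.1 to 114 in the other Cd36KO libraries.

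Downstream, 4 of 9 genes were above 0 and 5 below, and 0 passed in either direction. The valine enzymes lay on both sides of 0. Acad8, the isobutyryl-CoA dehydrogenase, had 68.2 to 145 normalized counts in WT and 111 to 150 in Cd36KO libraries, with a log2 fold change of 0.46. It was 0.72 with a DESeq2 adjusted p of 0.0281 without WT 4, and passed in none of the other 7 such fits (0.33 without WT 3). Hibadh, the 3-hydroxyisobutyrate dehydrogenase, had 298 to 379 normalized counts in WT, 137 in the unnumbered Cd36KO library and 265 to 327 in the others. Its log2 fold change of -0.45 (standard error 0.24) was the lowest of the downstream genes, with a DESeq2 adjusted p of 0.355, and it was -0.25 without the unnumbered Cd36KO library. Hibch, the hydrolase of the step before, was at -0.31, also with its lowest value (72.4) in the unnumbered Cd36KO library, and at -0.11 without that library or without WT 4. Aldh6a1, which follows Hibadh, was at 0.11. On the leucine branch Ivd, the isovaleryl-CoA dehydrogenase, was at -0.13, and the methylcrotonyl-CoA carboxylase subunits Mccc1 and Mccc2 were at -0.29 and -0.37. Mccc2 had 32.5 to 47.6 normalized counts in WT and 24.5 to 37.4 in Cd36KO libraries, so its interval was wide, from -0.97 to 0.22. The hydratase Auh was at 0.05. Acadsb, which acts on isoleucine intermediates, was at 0.24, with 413 to 675 normalized counts in WT and 562 to 769 in Cd36KO libraries.

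The highest and lowest values of the 43 members were spread unevenly over the libraries. WT 1 held the lowest value of 15 members and WT 3 that of 10. The unnumbered Cd36KO library held the highest value of 10 members and the lowest of 6. WT 4 held the highest value of 9 members, and without it 9 members were called higher in DESeq2 (21.4% of the 42 with an adjusted p), while calls over all genes went from 284 to 501 (8.52% of 5881). Without WT 2, WT 3, the unnumbered Cd36KO library or Cd36KO 3, 0 were called, without WT 1 or Cd36KO 4, 1 was, and without Cd36KO 2, 4 were.

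Beyond the 46 genes, a list of 39 neighbours in the same pathways gave 32 genes with an adjusted p. Of these, 2 were called higher and 2 lower in DESeq2, where 2.95% of all genes were called in either direction. In edgeR 0 were called, against 0.143% of all genes. Sdhb, the iron-sulfur subunit of succinate dehydrogenase, had 3176, 4577, 4788 and 5994 normalized counts in WT 1 to 4 and 6240 to 9933 in Cd36KO libraries. The groups did not overlap, and Sdhb rose with a log2 fold change of 0.78 (DESeq2 adjusted p of 0.0161). Ldhb, the lactate dehydrogenase subunit common in oxidative tissue, rose by 0.63 on the log2 scale, from 555 ± 87.6 to 857 ± 75.4 normalized counts (SD, n = 4 per group, DESeq2 adjusted p of 0.00937). Pck1, the cytosolic phosphoenolpyruvate carboxykinase that draws oxaloacetate out of the cycle for glyceride synthesis, fell from 2383 ± 479 to 1362 ± 362 (log2 fold change -0.81, DESeq2 adjusted p of 0.0231). Gpt2, the mitochondrial alanine transaminase, had 34.3, 98.5, 100 and 199 normalized counts in WT 1 to 4 and 26.5 to 44.6 in Cd36KO libraries. The log2 fold change of Gpt2 was -1.74 (DESeq2 adjusted p of 0.00592), and WT 1 lay inside the Cd36KO range. Leaving out 1 library gave from 0 calls on this list (without WT 2, 1.62% of all genes called) to 6 (without WT 4, 8.52%). There was 1 call without WT 3 (1.19%) and 1 without the unnumbered Cd36KO library (1.11%).

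Exons of Idh3b, Mdh1, Pdha1, Mpc1, Me3, Bcat2, Bckdha, Mccc1, Got2 and Aldh6a1 overlap a gene on the opposite strand, and those of Hibadh a gene on the same strand. Whether the counting used strand is not stated, so how reads in the shared stretches were assigned is not known.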

How the data were processed

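BAT of 4 WT and 4 Cd36KO mice was profiled. The study's methods name bbduk for trimming of single-end reads, STAR for alignment to mm10 and HTSeq-count for counting, whereas the submitters' processing notes list Trimmomatic, HISAT2 and DESeq2. The values the authors deposited are raw counts per gene. A second deposited table holds log2 values, checked to be log2(normalized count + 1) of the same libraries, and served only for limma. The strand setting, annotation release and use of molecular identifiers are not given in the sources used here.

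Counts were tested with DESeq2 1.42.0 (genotype as the only term, R 4.3.3), the tool the study names, with edgeR 4.0.16 (quasi-likelihood), limma 3.58.1, a filter of 10 counts in 4 libraries, other scaling, marker scores as covariates, a replicate block and leaving out each library as alternatives. Exact permutation tests used SciPy 1.17.1 on log2(normalized count + 1). Symbols came from GENCODE M21 on GRCm38, with 30934 of 31053 identifiers matched. The functions were tested on simulated counts with 200 changed genes. CPM were computed from the deposited counts. Intervals cover the spread between libraries, and levels of different genes were not compared. Values of every library were given for members past the threshold, for those without overlap and for Pdk1 to Pdk4; other members are given by role, and neighbours are named where they passed. Any other per-library values, and the subunit ratios, were chosen after values were seen. The members and lists were chosen with earlier results of these data known. Figures were drawn with matplotlib 3.10.9.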

Additional observations from a re-analysis of the deposited data

Results flagged for a closer look

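In 4 of 86 member and group combinations, 1 library lay far from the other 3 by Dixon's ratio at its 95% critical value, where chance gives about 4.3. Fh1 had 146 normalized counts in the unnumbered Cd36KO library against 420 to 447 in the other Cd36KO libraries. Hibch had 72.4 in the same library against 142 to 154. Pdp2 had 518 in Cd36KO 4 against 687 to 724. Pcx had 676 in WT 1, the WT library with the most muscle and the fewest white fat marker counts, against 1439 to 1510 in the other WT libraries.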

How the results depend on the processing

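The median log2 fold change of the members stayed between 0.14 and 0.31 in the alternatives run, beside 0.21. Idh3g passed in 7 of 16 alternatives, Suclg1 in 5 and Idh2 in 3, each with a positive fold change throughout (0.44 to 1.02, 0.45 to 0.90 and 0.43 to 0.71). Members called, 3 here, were 0 in edgeR, in limma, with the muscle score, in the replicate block and in the same 6 libraries without it, 1 with independent filtering off, and 12 with the white fat score (11 higher and 1 lower, Got1 at -2.34, the others including Pdhb at 1.40 and Mdh1 at 1.26). Leaving out 1 library gave 0 to 9 calls, where 1.11% to 8.52% of all genes were called. Called genes in all, 284 here, were 14 in edgeR, 171 with independent filtering off, 8 in limma, 187 with the muscle score, 617 with the white fat score and 68 to 501 without 1 library. The neighbour list, 4 here, had 0 calls in edgeR and limma, 2 with the muscle score and 0 to 6 without 1 library. Members with groups not overlapping were 3 to 13 above and 0 to 2 below without 1 library, where over all genes 5.54% to 10.6% lay above and 4.84% to 7.90% below. The 13 and the 10.6% are both without WT 4. The cause of these changes was not tested. The replicate numbers 2, 3 and 4 are shared by both groups, but same-numbered libraries correlated at -0.118, 0.388 and 0.136 in their deviations, so they were not taken as pairs. The replicate block on these 3 pairs called 222 genes, against 262 in the same libraries without it.

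The sign changed in at least 1 alternative for 18 members and did not for 28, Idh3g, Idh2 and Suclg1 among the latter. In limma Pdp1 was at 0.19. With the muscle score Aldh6a1 was at -0.13, Got1 at 0.85, Got2 at 0.17 and Pdp1 at 0.70. In the replicate block Pdk4 was at 0.01, Auh at -0.03, Mpc1 at -0.11, Got1 at 0.14, Fh1 at 0.04, Idh3a at 0.23 and Pdp1 at 0.45. With the white fat score Sucla2 was at -0.00031, Me2 at 0.42, Pcx at 1.13 (past the threshold, DESeq2 adjusted p of 0.00126), Ivd at 0.06, Mccc1 at 0.30 and Bcat2 at 0.08. Leaving out 1 library gave -0.30 to 0.03 for Pcx, -0.57 to 0.57 for Pdp1, -0.14 to 0.28 for Pdk1, -0.05 to 0.16 for Auh, -0.14 to 0.31 for Mpc1, -0.27 to 0.05 for Bcat2, -0.18 to 0.12 for Idh3a, -0.22 to 0.13 for Glud1, -0.12 to 1.19 for Pdk3, -1.20 to 0.15 for Got1, -0.42 to 0.05 for Got2 and -0.81 to 0.13 for Me2. Pdk3, Pdp1 and Me2 had at most 20 counts in any library, and the negative value of Pdk3 was the one without the unnumbered Cd36KO library.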
